A study of Mus musculus with 9 samples.

Results

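The 10 genes described here belong to the BCL2 family, whose proteins decide whether mitochondria release the signals for cell death, and were followed in T cell lymphomas driven by MYCN and in control CD4 T cells of the spleen. They were taken by symbol from a table of 46078 genes: the 3 survival members Bcl2, Bcl2l1 (which encodes BCL-XL) and Mcl1, and the 7 death members Bax, Bak1, Bcl2l11 (BIM), Bbc3 (PUMA), Pmaip1 (NOXA), Bid and Bad. All 10 were present, and all 10 were among the 15401 genes with enough counts to be tested. Transcript 3′ ends were sequenced in 9 libraries from C57BL/6J mice, of which 6 held lymphoma cells from the thymus (numbered 34, 53, 56, 70, 72 and 86 by their labels) and 3 held CD4 T cells from the spleen (CD4 1, 2 and 3). The labels state neither the promoter that drove MYCN nor the age of the mice, and they do not say whether animals were pooled or whether each library came from a different animal. The p-values therefore measure the spread between these libraries, which may in part be technical.

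In this family, survival proteins hold the effectors BAX and BAK in check at the outer membrane of the mitochondrion. BH3-only proteins such as BIM, PUMA, NOXA, BID and BAD are sensors of stress that occupy the survival proteins or engage the effectors directly. Freed effectors form pores through which cytochrome c escapes and starts the caspase cascade. In T cells, BCL2 and MCL1 are known as keepers of resting cells, BCL-XL as the survival protein of double-positive thymocytes, and BIM as the sensor required for deletion of self-reactive thymocytes.

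Reads counted in genes ranged from 11170704 to 15769679 in lymphoma and from 8099960 to 10808828 in CD4. The mouse gene Mycn had at most 6 counts in any library, so the driver was not measurable and the labels could not be checked by it. T cell markers were present throughout: the summed level of 8 such genes was 1640 to 2290 counts per 1000000 (CPM, scaled as described under processing) in lymphoma and 2500 to 2790 CPM in CD4. Cd4 itself, which defines the control cells, had 199 to 263 CPM in CD4 and 6.03 to 71.8 CPM in lymphoma. The CD4 libraries also held other cells' transcripts. The sum of 8 B cell markers, all of which fell, was 724 to 859 CPM there against 3.14 to 8.15 CPM in lymphoma, that of 8 myeloid markers, of which 6 fell, was 590 to 918 against 46.1 to 167 CPM, and that of 5 markers of plasmacytoid dendritic cells, all of which fell, was 428 to 504 against 48.5 to 105 CPM. None of these markers was at 0 in all libraries of a group. Thymocyte markers (5) summed to 9.45 to 17.4 CPM in lymphoma, with Rag2 at 0 in all 6, and to 37.3 to 48.8 CPM in CD4, with Rag1 and Ptcra at 0 in all 3. Most of these sums came from Cd1d1 (8.66 to 17.1 CPM in lymphoma, 27.3 to 36.3 CPM in CD4). Rag1, Rag2 and Ptcra had at most 2 counts in any library, so the sums do not rank the groups by thymocyte content. Erythroid markers (5) summed to 8.14 to 632 CPM in lymphoma and 69.0 to 243 CPM in CD4, and stromal markers (5) to 16.5 to 74.1 and 23.9 to 33.8 CPM, with Dcn at 0 in CD4. The Y-linked gene Ddx3y (119 to 178 CPM in lymphoma, at most 0.732 CPM in CD4) and Xist (at most 11.3 CPM in lymphoma, at least 492 CPM in CD4) parted the groups, so tumour state, tissue and sex cannot be told apart. Lymphoma 53 stood apart from the other lymphomas, with a mean correlation to them across genes of 0.891, against 0.936 to 0.943 for the rest. It was also the lymphoma with clear Cd8b1 (47.5 CPM, against at most 0.734 CPM in the others). The CD4 libraries held CD8 markers too, with Cd8b1 at 35.8 to 44.9 CPM and Cd8a at 25.5 to 31.7 CPM. The sum of both was 64.5 to 76.2 CPM in CD4, 76.9 CPM in lymphoma 53 and at most 2.26 CPM in the other lymphomas.

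Expression of 7 of the 10 members differed between lymphoma and CD4 by edgeR's quasi-likelihood test at an adjusted p under 0.05, where 46.6% of all tested genes did. All 3 survival members fell, and 3 death members (Bax, Bak1 and Bid) rose, while Pmaip1 fell and Bcl2l11, Bbc3 and Bad did not pass the test. A fall was called for 21.9% of all tested genes and a rise for 24.7%. The median log2 fold change was -1.92 over the survival members and 0.42 over the death members, beside 0.04 over all tested genes. The groups did not overlap in 6 of the 10 members, beside 44.9% of tested genes. The number of members called was 3 without CD4 3, with Bcl2, Mcl1 and Bak1 left. No count over all genes is given here for that fit, so the drop is not read as particular to the members. The number of members called was also 3 at an adjusted p under 0.01, where 4915 of the 15401 tested genes were called, against 7174 at 0.05.

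**Figure D1:**
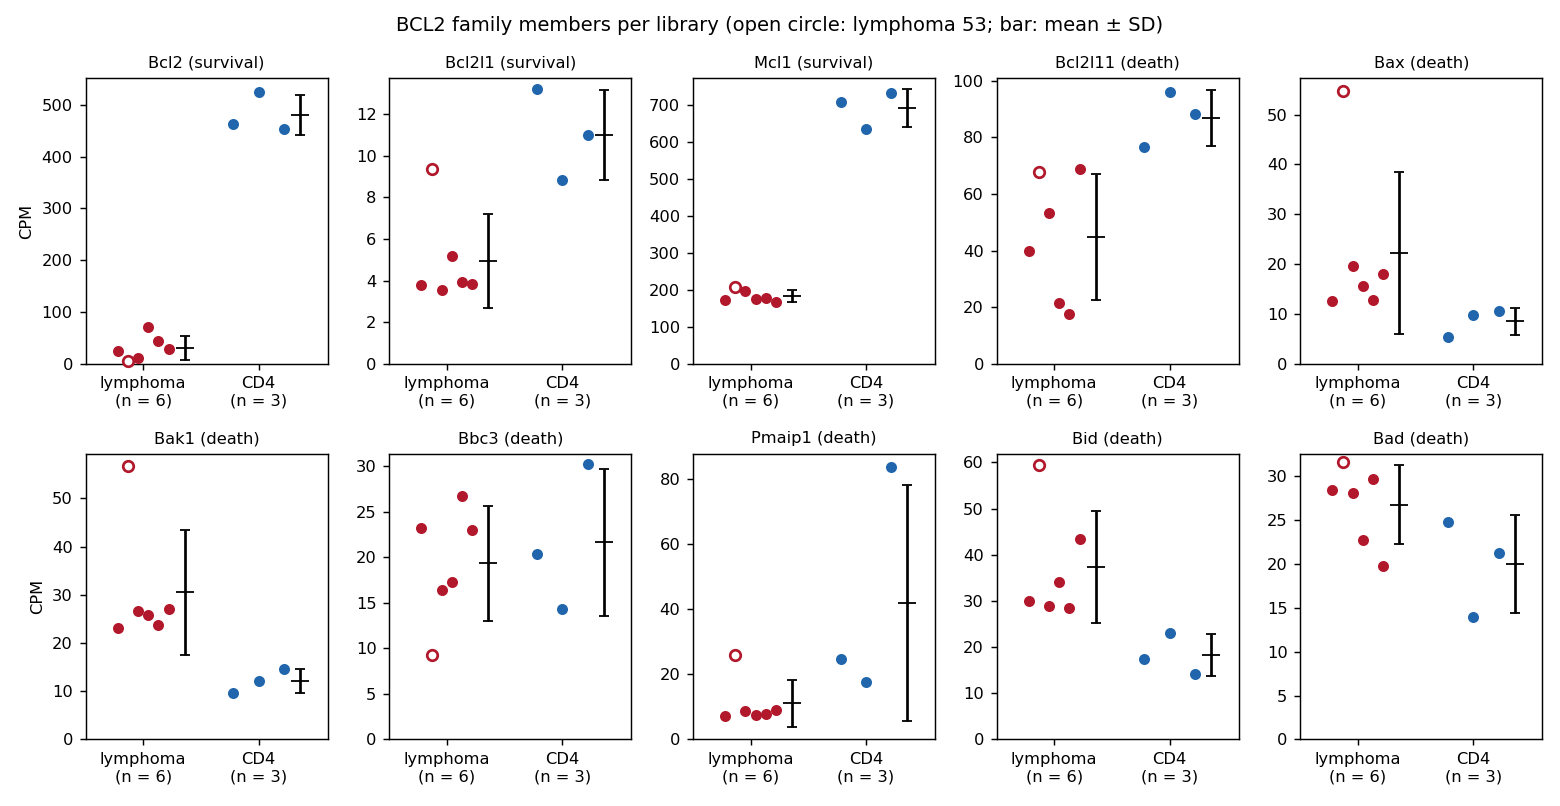
Level of each member in CPM (vertical axis, from 0, a separate scale per gene) in the 6 lymphoma libraries (red, lymphoma 53 as an open circle) and the 3 CD4 libraries (blue), with the mean ± SD as a black bar. Bcl2 and Mcl1 lie far below CD4 in all 6 lymphomas, and Bax, Bak1 and Bid lie above CD4 with lymphoma 53 highest.

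Among survival members, Bcl2 (ENSMUSG00000057329, GRCm38 chromosome 1, 106538178 to 106714274, minus strand) changed most. It had 463, 525 and 453 CPM in CD4 1, 2 and 3, and 4.65 to 70.2 CPM with a median of 26.7 CPM in lymphoma. Every lymphoma lay below every CD4 library. The mean was 480 ± 38.6 CPM (SD, n = 3) in CD4 and 30.5 ± 23.9 CPM (SD, n = 6) in lymphoma, 15.7-fold lower. The log2 fold change was -3.97 (SE 0.650, 95% interval -5.43 to -2.52, edgeR adjusted p 0.000842). Within the lymphomas the levels ran in the order 70 (70.2 CPM), 72 (44.1), 86 (28.9), 34 (24.5), 56 (10.6) and 53 (4.65), a span of 15.1-fold between single libraries.

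Mcl1 (ENSMUSG00000038612, chromosome 3, 95658788 to 95663176, plus strand) encodes a short-lived survival protein. It had 710, 636 and 734 CPM in CD4 and 167 to 207 CPM with a median of 177 CPM in lymphoma. The groups lay wide apart, and the lymphomas differed little among themselves, with a coefficient of variation of 8.48%, against 78.5% for Bcl2. The mean of Mcl1 was 183 ± 15.5 CPM (SD, n = 6) in lymphoma against 693 ± 51.1 CPM (SD, n = 3), a fall of 3.79-fold. Its fitted log2 change was -1.92 (SE 0.129, edgeR adjusted p 6.23e-07).

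Bcl2l1 (ENSMUSG00000007659, chromosome 2, 152780668 to 152831728, minus strand) rested on few reads, 49 to 103 counts per lymphoma and 74 to 139 per CD4 library. It had 13.2, 8.86 and 11.0 CPM in CD4 and 3.56 to 9.39 CPM with a median of 3.87 CPM in lymphoma. The groups overlapped through lymphoma 53 (9.39 CPM), which exceeded CD4 2, while the other 5 lymphomas had at most 5.20 CPM. Bcl2l1 fell by 1.16 on the log2 scale (SE 0.376, edgeR adjusted p 0.0243). The adjusted p was 0.0015 without lymphoma 53, 0.05015 without lymphoma 34, 0.091 without CD4 1 and 0.0646 without CD4 3.

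The summed levels of B cell, myeloid and dendritic cell markers moved with these falls, each sum being higher in every CD4 library than in any lymphoma, as given above, while the single genes Lyz2, Cd14 and Bst2 overlapped between groups. The CD8 sum was likewise lower in all lymphomas other than 53. Their part in the CD4 levels of Bcl2, Mcl1 and Bcl2l1 was not tested. In mixed RNA, fewer cells that express a gene and less of its RNA per cell cannot be told apart.

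The effectors moved the other way. Bax (ENSMUSG00000003873, chromosome 7, 45461697 to 45466898, minus strand) had 5.43, 9.70 and 10.5 CPM in CD4 and 12.6 to 54.8 CPM with a median of 16.8 CPM in lymphoma. No lymphoma overlapped with CD4, but the highest value was that of lymphoma 53, and the next was 19.7 CPM in lymphoma 56. The mean of Bax was 22.2 ± 16.2 CPM (SD, n = 6) in lymphoma against 8.55 ± 2.74 CPM (SD, n = 3), a rise of 2.6-fold. Its fitted log2 change was 1.37 (SE 0.502, edgeR adjusted p 0.0413), with only 57, 81 and 115 counts in CD4 1, 2 and 3. The change was 0.87 without lymphoma 53 (edgeR adjusted p 0.0238). The call was lost without lymphoma 56 (adjusted p 0.0505), without CD4 1 (0.135), CD4 2 (0.0889) or CD4 3 (0.0713), with upper quartile scaling (adjusted p 0.0539) and with limma voom (0.0965).

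Bak1 (ENSMUSG00000057789, chromosome 17, 27019810 to 27029009, minus strand), the second effector, had 9.53, 12.1 and 14.7 CPM in CD4 and 23.1 to 56.8 CPM with a median of 26.2 CPM in lymphoma. The other lymphomas lay between 23.1 and 27.0 CPM and lymphoma 53 alone at 56.8 CPM, all above CD4. The mean of Bak1 was 30.5 ± 13.0 CPM (SD, n = 6) in lymphoma against 12.1 ± 2.61 CPM (SD, n = 3), a rise of 2.52-fold. Its log2 fold change was 1.33 (SE 0.328, edgeR adjusted p 0.00584), and 1.05 without lymphoma 53 (adjusted p 0.00108).

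MYC family proteins, MYCN among them, bind the E-box CACGTG, a palindrome that reads the same on both strands. This hexamer was searched in RefSeq promoter windows of GRCm38.p6, which run from 250 bases before a start site to 50 after it and were at hand for 9 of the 10 members. It occurred in 2 of 15 member windows, those of Bax and of 1 start of Bbc3, and in 7.15% of all 32851 windows. The window of Bax held 2 copies, which 0.594% of all windows did, and that of Bcl2 held none. The 150 bases before the start site are shown for both genes, as those of the riser with E-boxes and of the member that fell most, 5′ to 3′ on the gene's strand with the E-box in capitals. A match is only a run of letters, and binding was not measured here.
Bax, chr7:45466899-45467048, minus strand: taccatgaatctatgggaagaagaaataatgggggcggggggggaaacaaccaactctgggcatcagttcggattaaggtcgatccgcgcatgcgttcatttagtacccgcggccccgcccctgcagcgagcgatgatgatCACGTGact
Bcl2, chr1:106714291-106714440, minus strand: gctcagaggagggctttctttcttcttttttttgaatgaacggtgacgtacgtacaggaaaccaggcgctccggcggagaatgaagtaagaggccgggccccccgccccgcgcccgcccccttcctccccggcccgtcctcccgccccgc
The E-box shown begins 9 bases before the start of Bax, and the second copy, not shown, begins at base 36 after it.

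The BH3-only members did not move as one. Bid (ENSMUSG00000004446, chromosome 6, 120891930 to 120916853, minus strand), which links death receptors to mitochondria after cleavage by caspase 8, had 17.5, 23.1 and 14.2 CPM in CD4. In lymphoma it had 28.4 to 59.5 CPM with a median of 31.9 CPM, and again every lymphoma exceeded CD4 and lymphoma 53 was highest. Bid rose 2.04-fold in the mean, and its fitted log2 change was 1.03 (SE 0.285, edgeR adjusted p 0.0111). Without CD4 3 the change was 0.88 and the adjusted p 0.0544.

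Pmaip1 (ENSMUSG00000024521, chromosome 18, 66458533 to 66465565, plus strand) encodes NOXA, a BH3-only protein that binds MCL1. It had 24.6, 17.7 and 83.7 CPM in CD4 and 7.21 to 26 CPM with a median of 8.25 CPM in lymphoma. The other lymphomas lay between 7.21 and 9.16 CPM, while lymphoma 53, at 26 CPM, overlapped with CD4. Pmaip1 fell by 1.93 on the log2 scale (SE 0.525, edgeR adjusted p 0.011). The size rests on CD4 3: without it the change was -0.93 (edgeR adjusted p 0.154), and without lymphoma 53 it was -2.39 (adjusted p 0.000607). CD4 3 also had the highest levels among CD4 libraries of Ctla4 (125 CPM, against 65.4 and 48.4) and Cd28 (650 CPM, against 337 and 358). Other markers of the same lists were mixed. Cd3e was highest in CD4 3 (191 CPM, against 142 and 137), but Lck was lowest there (691 CPM, against 767 and 849). Foxp3 had 27.4 CPM in CD4 3, against 68.5 in CD4 1 and 26.1 in CD4 2. The part of these genes in the Pmaip1 level of CD4 3 was not tested.

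Bcl2l11 (ENSMUSG00000027381, chromosome 2, 128126038 to 128162547, plus strand) had 76.5, 96.2 and 88.3 CPM in CD4 and 17.7 to 69.0 CPM with a median of 46.7 CPM in lymphoma. All lymphomas lay below all CD4 libraries, lymphomas 70 (21.5 CPM) and 72 (17.7 CPM) by far the lowest and 86 (69.0 CPM) and 53 (67.7 CPM) the closest. The log2 fold change was -0.96 (SE 0.389, 95% interval -1.81 to -0.10), and the edgeR adjusted p was 0.0635, so the difference did not pass. It did pass in 7 of 18 alternatives, with adjusted p from 0.0269 to 0.168 over all of them, among them the fits without lymphoma 53 (0.0397) and without lymphoma 86 (0.0397).

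Bbc3 (ENSMUSG00000002083, chromosome 7, 16308393 to 16318205, plus strand), a target of p53, had 20.4, 14.3 and 30.3 CPM in CD4 and 9.30 to 26.8 CPM with a median of 20.1 CPM in lymphoma. The groups overlapped throughout, and lymphoma 53 was the lowest library of all. The log2 fold change was -0.16 with a 95% interval of -0.89 to 0.56 (edgeR adjusted p 0.721). Bad (ENSMUSG00000024959, chromosome 19, 6941861 to 6951899, plus strand), which phosphorylation by AKT and PIM kinases keeps inactive, had 24.8, 13.9 and 21.2 CPM in CD4 and 19.8 to 31.6 CPM with a median of 28.3 CPM in lymphoma. Bad changed by 0.42 with a 95% interval of -0.11 to 0.94 (edgeR adjusted p 0.176). For both genes a change of 2-fold lies outside the interval in either direction.

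**Figure D2:**
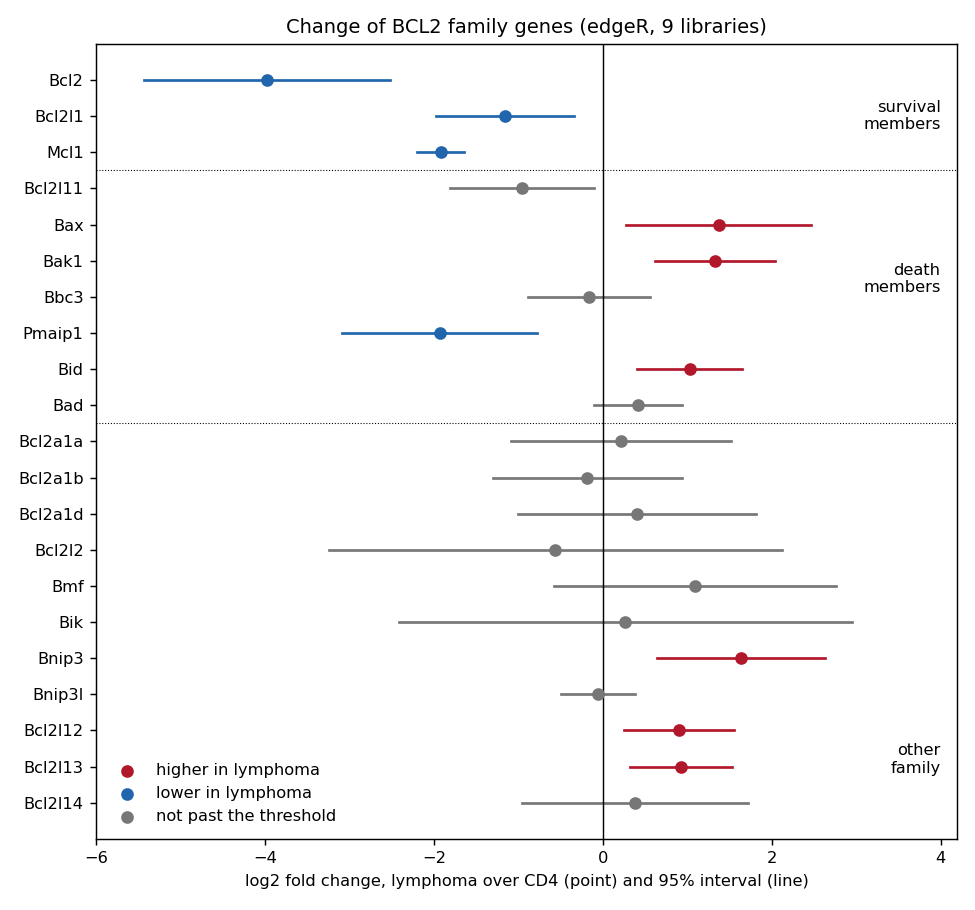
Fitted log2 fold change of lymphoma over CD4 (points, horizontal axis) with 95% intervals (lines) for the 10 members and the 11 other tested genes of the family, coloured by the edgeR call. The 3 survival members lie to the left of 0 and Bax, Bak1 and Bid to the right, and the widest intervals are those of the low genes Bcl2l2 and Bik.

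Lymphoma 53 set much of the spread within lymphoma. It had the highest level of the 6 lymphomas in 7 members (Bcl2l1, Mcl1, Bax, Bak1, Pmaip1, Bid and Bad) and the lowest in 2 (Bcl2 and Bbc3). Relative to the CD4 mean, its log2 CPM was 2.71 higher for Bax, where the other lymphomas stood 0.61 to 1.25 higher, and -6.64 for Bcl2, where the others stood between -5.48 and -2.77. Leaving it out gave 8 called members in place of 7, with Bcl2l11 added among the lower, while calls over all genes went from 7174 to 8137. The libraries 70 and 72 were alike in a further respect, having the highest Bcl2 and the lowest Bcl2l11. These were also the most alike pair of lymphomas over all tested genes (r = 0.980 across genes), and the labels do not say whether they arose independently. With lymphomas 34, 70 and 72 summed to 1 library, 6 members were called, and Bcl2l1 was not (adjusted p 0.0782). No count over all genes is given here for that fit, so the change from 7 is not read as particular to the members. Lymphoma 34 was less like 70 and 72 (r = 0.953 and 0.949) than lymphomas 56 and 86 were like each other (0.957).

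**Figure D3:**
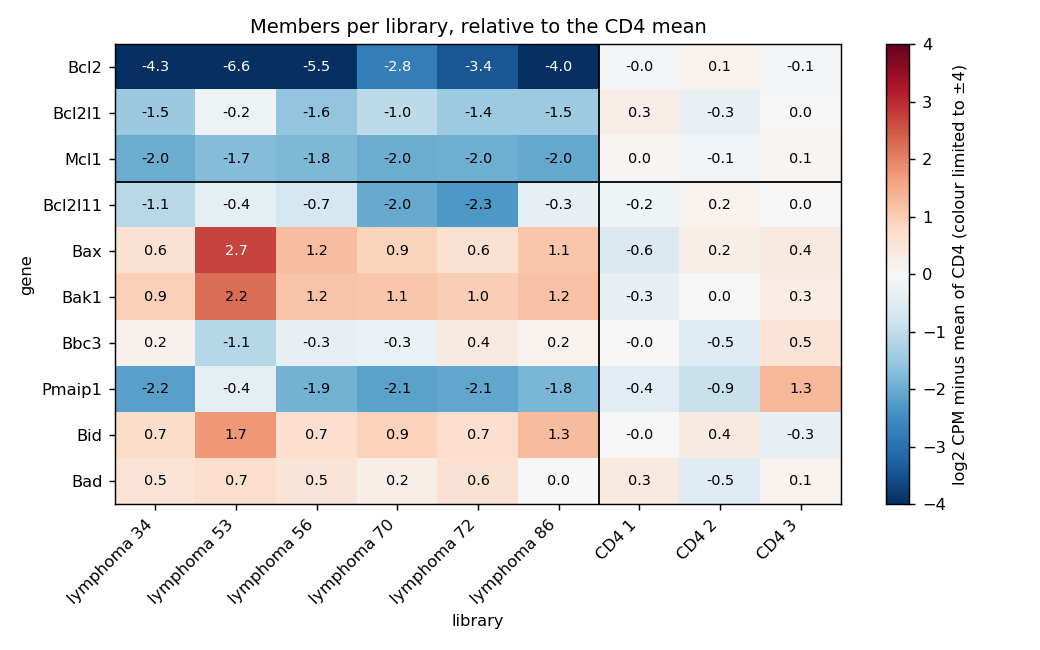
Each cell gives log2 CPM of a member (rows) in a library (columns) minus its mean over the 3 CD4 libraries, with red for higher and blue for lower and the colour limited to ±4. Bcl2 is lower in each lymphoma, most in lymphoma 53 (-6.64), and Bax is highest in lymphoma 53 (2.71).

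Survival members were then set against death members within each library. The measure was the mean log2 CPM of the 3 survival members minus that of the 7 death members. Its level depends on how well each gene is counted, so only its change between libraries can be read. It was 3.10, 2.91 and 2.51 in CD4 1, 2 and 3, and 0.29, -0.81, -0.21, 1.09, 0.72 and 0.10 in lymphomas 34, 53, 56, 70, 72 and 86. Every lymphoma lay below every CD4 library, lymphoma 53 lowest and lymphomas 70 and 72 highest of the 6. The mean was 2.84 ± 0.30 (SD, n = 3) in CD4 and 0.20 ± 0.68 (SD, n = 6) in lymphoma, a difference of -2.64. No test is given, since the members were chosen with results known. The survival mean differed by -2.52 and the death mean by 0.12. The latter averages members with log2 fold changes of either sign (1.37 for Bax, 1.33 for Bak1 and 1.03 for Bid, but -1.93 for Pmaip1 and -0.96 for Bcl2l11), and it was 0.29 without CD4 3 and -0.01 without lymphoma 53. The difference between survival and death members was -1.68 without Bcl2.

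**Figure D4:**
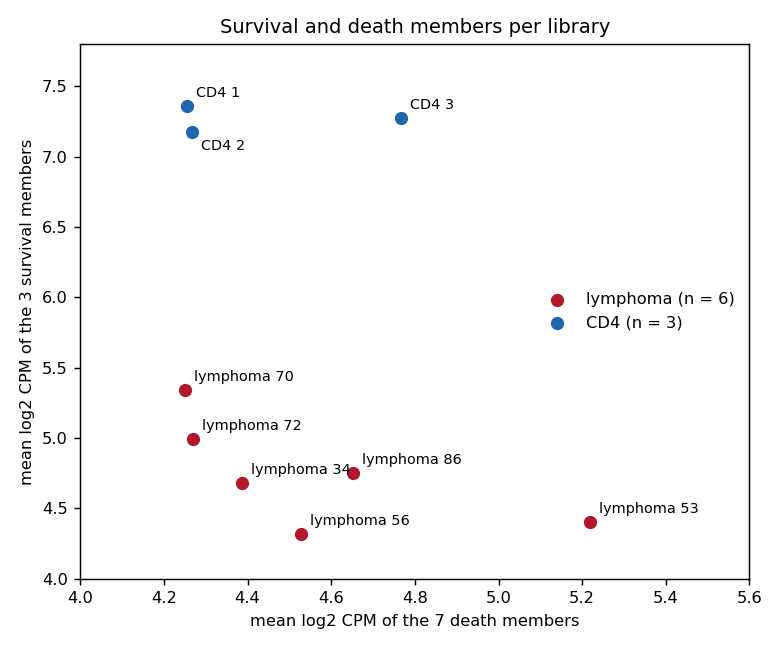
Mean log2 CPM of the 7 death members (horizontal axis) against that of the 3 survival members (vertical axis), 1 point per library, lymphoma in red and CD4 in blue. The lymphomas lie between 4.32 and 5.34 on the vertical axis and CD4 between 7.17 and 7.36, while the groups overlap on the horizontal axis. There, lymphoma 53 at 5.22 lies above the CD4 range (4.26 to 4.77) and lymphoma 70 at 4.25 just below it.

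Single pairs of a survival gene and a death gene were compared in the same way, without a test. Bcl2 minus Bcl2l11, in log2 CPM, was 2.6, 2.45 and 2.36 in CD4. In lymphoma it was 1.70 and 1.31 in libraries 70 and 72, -0.70 in 34, -1.25 in 86, -2.31 in 56 and -3.82 in 53. All lymphomas were below CD4 in this ratio, and they spanned a wider range among themselves than the gap between group means (-3.31, and -2.72 without lymphoma 53). Mcl1 minus Bak1 was 5.84 ± 0.31 (SD, n = 3) in CD4 and 2.65 ± 0.40 (SD, n = 6) in lymphoma, without overlap. Bcl2 minus Bax was 5.84 ± 0.49 and 0.20 ± 2.10 with the same numbers of libraries, again without overlap. Lymphoma 53, at -3.51, lowered that mean: without it the mean was 0.94 and the difference -4.90 in place of -5.64. Bcl2l1 minus Bad was -0.83 ± 0.16 in CD4 and -2.47 ± 0.49 in lymphoma. Mcl1 minus Pmaip1 was 4.38 ± 1.09 in CD4 and 4.2 ± 0.61 in lymphoma, a difference of -0.17. That small value rests on CD4 3, at 3.13, where CD4 1 and 2 were at 4.84 and 5.15. Without CD4 3 the difference was -0.79, and all 6 lymphomas (2.99 to 4.56) lay below both remaining CD4 libraries. It was 0.07 without lymphoma 53, 0.06 without CD4 1 and 0.22 without CD4 2, so its direction depends on single libraries.

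The other genes of the family were described from a list of 14, of which 11 were tested, 3 rose and 0 fell, with a median log2 fold change of 0.38. Bnip3, an atypical member that tags mitochondria for removal, had 3.91, 2.04 and 3.30 CPM in CD4 and 5.75 to 17.4 CPM in lymphoma. It rose by 1.64 (SE 0.456, edgeR adjusted p 0.0114), and the adjusted p was 0.0529 without CD4 2. Bcl2l13 rose by 0.93 (SE 0.276, edgeR adjusted p 0.0159) and Bcl2l12 by 0.90 (SE 0.299, edgeR adjusted p 0.027). The call of Bcl2l13 was lost without CD4 2 (0.0743) or CD4 3 (0.0728), and that of Bcl2l12 without any 1 of CD4 1, 2 and 3 (0.0744, 0.054 and 0.0744) and with limma voom (0.0574).

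Bcl2a1b, a survival gene that NF-kB induces, had 26.4, 22.4 and 25.9 CPM in CD4 and 3.01 to 35.4 CPM in lymphoma, with lymphoma 53 alone under 19.0 CPM. Its log2 fold change was -0.18 with a 95% interval of -1.30 to 0.93 (edgeR adjusted p 0.796). The near-identical copies Bcl2a1a and Bcl2a1d changed by 0.22 and 0.41 and did not pass either (edgeR adjusted p 0.795 and 0.641). Reads that fit several of these copies may be in no gene's count, so all 3 values are uncertain. The survival gene Bcl2l2 and the BH3-only genes Bmf and Bik were low, with means of at most 3.73 CPM in either group, and did not pass (edgeR adjusted p 0.739, 0.268 and 0.879). Bnip3l changed by -0.06 (95% interval -0.50 to 0.38, adjusted p 0.837) and Bcl2l14 by 0.38 (edgeR adjusted p 0.647). Hrk, a BH3-only gene, was not tested: it had 0 counts in all 3 CD4 libraries and 0.216 to 4.29 CPM in lymphoma, highest in lymphoma 53. The lymphoma mean was at least 3.48-fold higher than the CD4 floor of 3 counts per library, but without lymphoma 53 (0.216 to 0.579 CPM in the others) only at least 1.38-fold, and the 3 counts of lymphoma 86 are at the floor. Bok and Bcl2l10 were untested as well, Bcl2l10 with 0 counts in all libraries.

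Downstream of the mitochondrion, 10 of 11 listed genes of the apoptosome and caspases were tested, of which 3 rose and 1 fell. Cycs, which encodes cytochrome c, had 10.6, 4.67 and 7.87 CPM in CD4 and 20.7 to 63.9 CPM in lymphoma and rose by 2.18 (SE 0.395, edgeR adjusted p 0.000822). Aifm1, a mitochondrial flavoprotein, rose by 0.91 (SE 0.220, edgeR adjusted p 0.00508). The initiator Casp9 fell by 1.03 (SE 0.238, edgeR adjusted p 0.004), its mean being 8.74 ± 1.26 CPM (SD, n = 6) in lymphoma against 17.8 ± 2.19 CPM (SD, n = 3). Of the 7 genes listed as mitochondrial partners, 6 rose and 0 fell, with a median of 0.78. The channel genes Vdac1 and Vdac2, the latter known to bind BAK, rose by 2.09 (SE 0.239) and 1.64 (SE 0.216), both without overlap (edgeR adjusted p 2.97e-05 and 8.32e-05).

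The inhibitors of apoptosis were split. Of 5 listed genes, 4 fell and 1 rose. Birc3 had 112, 109 and 129 CPM in CD4 and 12.8 to 21.6 CPM in lymphoma, a fall of 2.75 on the log2 scale (SE 0.190, edgeR adjusted p 7.41e-07). Birc2 fell by 1.6 (SE 0.235, edgeR adjusted p 0.000192). Birc5, known as survivin and also a subunit of the mitotic chromosomal passenger complex, rose 11.7-fold in the mean. It had 30.3, 15.3 and 26.4 CPM in CD4 and 215 to 436 CPM in lymphoma, and its fitted log2 change was 3.54 (SE 0.312, edgeR adjusted p 4.61e-06).

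In the death receptor pathway, 5 of 11 genes fell and 2 rose. The receptor gene Fas had 18.2, 24.2 and 16.2 CPM in CD4 and 0.515 to 3.47 CPM in lymphoma and fell by 3.10 (SE 0.461, edgeR adjusted p 0.000203). The adaptor kinase Ripk1 fell by 1.47 (SE 0.391, edgeR adjusted p 0.00873). Tnfsf10, which encodes the ligand TRAIL, rose by 1.03 and the adaptor Fadd by 0.95 (edgeR adjusted p 0.0318 and 0.0144). The call of Tnfsf10 was lost without lymphoma 70 (0.0537), lymphoma 72 (0.0598), CD4 2 (0.136) or CD4 3 (0.0944) and with lymphomas 34, 70 and 72 summed (0.0758), and that of Fadd without CD4 3 (0.0635).

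Of 10 genes listed as transcriptional inputs, 9 were tested, with 4 lower and 0 higher. Their part in the levels of the members was not tested. Foxo1, a factor of quiescent lymphocytes, had 439, 386 and 417 CPM in CD4 and 28.3 to 167 CPM in lymphoma, highest in lymphoma 53. It fell by 2.88 (SE 0.542, edgeR adjusted p 0.00168), and by 3.60 without lymphoma 53. Nfkb1 fell by 1.56 (SE 0.220, edgeR adjusted p 0.000139). Trp53 itself changed by 0.23 (95% interval -0.17 to 0.63, edgeR adjusted p 0.327), a gene named after its value was seen.

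Of 10 genes for protein turnover and kinases, 3 fell and 2 rose. Akt1 rose by 1.41 (SE 0.250, edgeR adjusted p 0.000717) and Pim3 by 0.93 (SE 0.298, edgeR adjusted p 0.0229), the latter with its call lost without CD4 1 (0.105) or CD4 2 (0.111) and with lymphomas 34, 70 and 72 summed (0.0593). Pim1 fell by 2.55 (SE 0.226, edgeR adjusted p 4.91e-06) and Pim2 by 1.24 (SE 0.312, edgeR adjusted p 0.00632), with Pim2 at an adjusted p of 0.0556 without CD4 1.

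Receptors for cytokines that sustain T cells fell in 6 of 9 cases and rose in 1, with a median of -1.50. Il2ra, which marks activated and regulatory T cells, had 55.0, 47.3 and 55.3 CPM in CD4 and at most 0.392 CPM in lymphoma. Its fitted log2 change was -7.92 (SE 0.541, edgeR adjusted p 7.33e-07). The lymphomas had 0 to 6 counts of Il2ra, at or near the floor of 3 counts, so the size of its fall is uncertain. Il6ra fell by 5.11 (95% interval -6.13 to -4.08, edgeR adjusted p 1.2e-05). Il7r, whose ligand IL-7 is known to maintain Bcl2 in resting T cells, was singled out after its value was seen: it had 427, 457 and 553 CPM in CD4 and 9.67 to 66.8 CPM in lymphoma and fell by 3.99 (SE 0.506, edgeR adjusted p 0.000131). Il6st rose by 0.46 (SE 0.172, edgeR adjusted p 0.0434), a call lost in 11 of 18 alternatives, among them RLE scaling (0.071), DESeq2 (0.0543) and the fits without lymphoma 72, lymphoma 86 or any 1 of the CD4 libraries (0.0529 to 0.127). Of 4 regulatory T cell markers, 3 fell, Il2ra, itself one of these receptors, among them. The sum of the 4 was 388 to 484 CPM in CD4 and 75.4 to 361 CPM in lymphoma. Ikzf2, at 266 to 295 CPM in CD4 and 74.9 to 361 CPM in lymphoma, did not pass (edgeR adjusted p 0.203). The part of these markers was not tested.

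**Figure D5:**
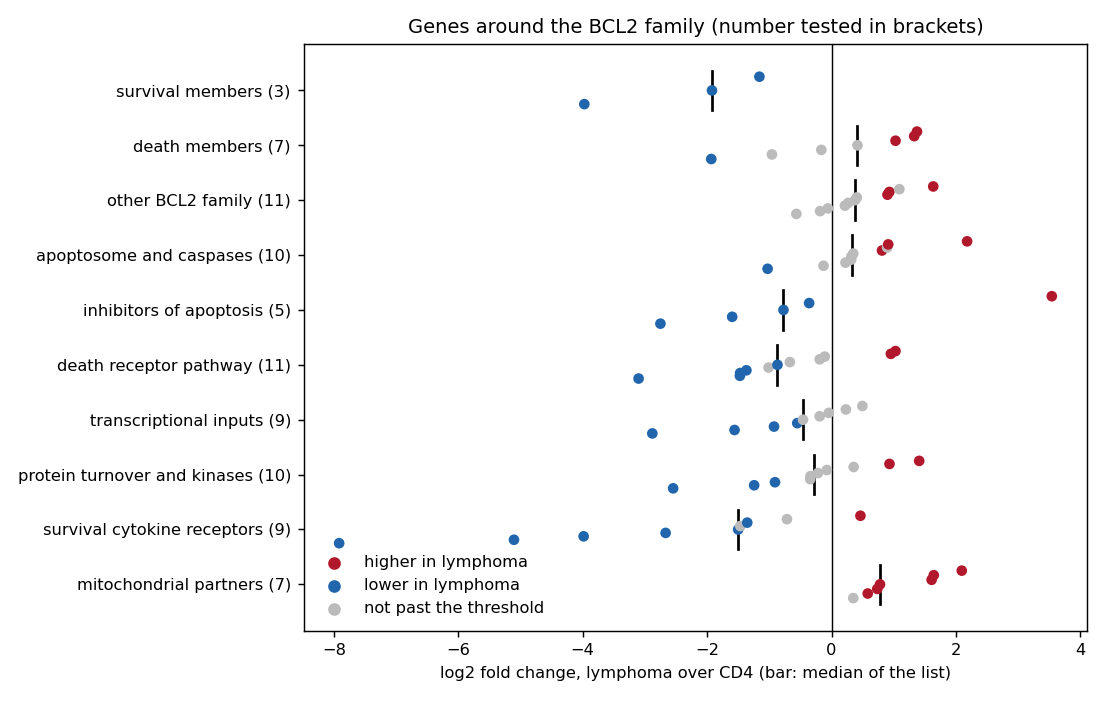
Log2 fold change of lymphoma over CD4 (horizontal axis) for each tested gene of the members and of the 8 further lists (rows, number tested in brackets), red for called higher, blue for called lower and grey for not past the threshold, with the list median as a black bar. The medians run from -1.92 for the survival members to 0.78 for the mitochondrial partners.

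Over the 8 further lists together, 41 of 72 tested genes were called (56.9%), 18 higher and 23 lower. Over all tested genes 46.6% were called, 24.7% higher and 21.9% lower. By list the called share was 27.3% (other family), 40% (apoptosome and caspases), 44.4% (transcriptional inputs) and 50% (protein turnover and kinases). It was 63.6% in the death receptor pathway, 77.8% in cytokine receptors, 85.7% in mitochondrial partners and 100% in inhibitors of apoptosis.

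Last, the genes whose log2 CPM followed a member most closely over the 9 libraries were named by Pearson's r, as a description with all libraries shared. For Bcl2 these were Gbp8 (r = 0.999, and 0.996 over the 6 lymphomas alone), Nabp1 (0.993 and 0.979) and Ago3 (0.991 and 0.986). For Mcl1 they were Tnfrsf4 (0.997 and 0.864), S1pr1 (0.997 and 0.919) and Id2 (0.996 and 0.685), each lower over the lymphomas alone than over all 9 libraries. For Bcl2l1 they were Zfand2b (0.986 and 0.990), Gxylt1 (0.982 and 0.972) and Gngt2 (0.982 and 0.981), and for Bcl2l11 Srpk1 (0.970 and 0.959), Clec2i (0.967 and 0.969) and Fcgr4 (0.967 and 0.956). The genes were picked over libraries that include the 6 lymphomas, so the second r is no separate check. For Bcl2l1, lymphoma 53 (9.39 CPM) lies far from the other lymphomas (at most 5.20 CPM), and r without it was not computed.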

How the data were processed

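The deposited table holds raw read counts per Ensembl gene and library, per the file headers and closing rows, with a symbol beside each ID. FastQC, HISAT2, SAMtools and HTSeq and the builds mm10 and GRCm38 are named in the submitters' processing notes, with no version or role. Which annotation release and strand setting were used is not given in the sources used here, so genes that overlap another gene are uncertain. Reads in genes made up 38.7 to 49.1% of all reads in lymphoma and 27.8 to 35.0% in CD4, and the 5 summary rows were left out.

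Tests ran on the counts in R 4.3.3 with edgeR 4.0.16: filterByExpr with a minimum count of 10, TMM scaling, robust quasi-likelihood fits over all 9 libraries with no covariate, and Benjamini-Hochberg adjustment over 15401 genes at 0.05. The SE is the absolute log2 fold change over the root of the F statistic, and intervals are at 95%. CPM is counts per 1000000 of TMM-scaled library size. For log2 CPM, 2 counts were added as prior. The floor of 3 counts covers counting error only, and reads may be PCR copies. The script was tested on simulated data.

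The members, lists and rules were chosen with earlier results of these data known. Named genes are the members, the tested genes of the wider family, up to 2 largest rises and 2 largest falls past the threshold in each further list, and the 3 genes most like each of 4 members. Alternatives were other scalings, filters and tests (DESeq2 1.42.0, limma 3.58.1), a threshold of 0.01, and leaving out each library. Positions of the 10 members came from GENCODE M21 by Ensembl ID. Replicate numbers do not overlap between groups, and nothing was paired.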

Additional observations from a re-analysis of the deposited data

Results flagged for a closer look

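Among the 6 lymphomas, 43 values (42 named genes in CPM and the survival against death measure) were examined for a library whose gap to its nearest neighbour exceeded Dixon's 95% critical value of the whole range. This held for 7 values, where chance gives about 2.15 (1 in 20), and all 7 concern lymphoma 53. The members among them are Bax at 54.8 CPM (nearest lymphoma 19.7), Bak1 at 56.8 CPM (27.0), Pmaip1 at 26 CPM (9.16) and Bcl2l1 at 9.39 CPM (5.20). The others are Cycs at 63.9 CPM (36.5), Birc5 at 436 CPM (296) and Foxo1 at 167 CPM (43.1). The 7 values come from 1 library and are not independent of each other.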

How the results depend on the processing

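Bcl2, Mcl1 and Bak1 kept their direction and call in all 18 alternatives, with log2 fold changes of -4.36 to -3.76, -2.02 to -1.86 and 1.05 to 1.5. No called member changed sign in any alternative, and 161 of 180 member values kept their side of the threshold. The count of called members was 6 to 8 under other scalings, filters and tests and with lymphomas 34, 70 and 72 summed (an alternative chosen after seeing the data). Under the other scalings, filters and tests, calls over all genes ran from 5574 (at least 10 counts in every library, 10581 genes tested) to 7757 (DESeq2). The count of called members was 3 at an adjusted p under 0.01 (1 higher, 2 lower, against 3 and 4), where calls over all genes went from 7174 to 4915. When 1 library was left out, 3 to 8 members were called, with 1 to 3 higher and 2 to 5 lower. The lowest of these was without CD4 3. The cause was not tested. Calls over all genes moved as well: they were 6554 without lymphoma 56 (6 members called) and 8137 without lymphoma 53 (8 members called). The range of member counts is therefore not read as particular to the members. The survival against death difference of -2.64 was -2.82 to -2.44 without 1 library, -2.29 from summed CPM and -1.68 without Bcl2 (chosen after seeing the data). The values of pairs, of the death mean and of Hrk without single libraries were also added after seeing the data. Over all genes the split of higher and lower calls was 3798 and 3376 with TMM, 3582 and 3577 with RLE, and 3414 and 3707 with upper quartile scaling. Upper quartile scaling moved the median log2 fold change of all genes from 0.04 to -0.06. No paired analysis was possible because the groups share no replicate number. Depth limits the low members: Bcl2l1 had 49 to 139 counts per library, and Bax had 57, 81 and 115 counts in CD4 1, 2 and 3.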
